A study of Mus musculus with 36 samples.

Results

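The mucolipins (Mcoln1, Mcoln2 and Mcoln3) and the two-pore channels (Tpcn1 and Tpcn2) are 5 genes, taken by name from the 12795 genes of a read count table of mouse cardiac macrophages. All 5 were listed, all passed the filter on low counts, and each had reads in all 36 libraries, the fewest being the 16 reads of Mcoln3 in 1 library. The study asked what overexpression of TFEB, a transcription factor of lysosomal genes, does to macrophages of the injured heart. It compared TFEB-TG mice, which carry a TFEB cassette behind a floxed stop (TFEB-LoxP-STOP), with TFEB-wt mice, which lack the cassette. The labels give Cx3cr1-er-Cre, a tamoxifen-activated recombinase driven from a gene of monocytes and macrophages, and a Td-Tomato-LoxSTOP reporter for TFEB-TG mice and for controls alike.

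Mice had tamoxifen in their feed for 7 days and then 90 min of cardiac ischemia, and macrophages were sorted 7 days after the injury into CCR2pos and CCR2neg fractions. CCR2 is the chemokine receptor of recruited monocytes and their progeny. In each fraction there were 4 mac-TFEB libraries (TFEB-TG cells with Cre), 5 CX3CR1-Cre libraries (TFEB-wt cells with Cre), 4 TFEB-TG Cre-neg libraries and 5 TFEB-wt Cre-neg libraries. The labels say neither what made Cre-neg cells Cre-neg nor that libraries came from separate animals, so p-values measure the spread between these libraries, part of which may be technical.

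Mucolipins are cation channels of endosomes and lysosomes that are opened by the lipid PI(3,5)P2. Calcium that leaves the lysosome through mucolipin 1 activates calcineurin, a phosphatase that lets TFEB enter the nucleus, and in human cells the gene of mucolipin 1 is itself bound by TFEB, so the channel and the factor form a loop. Mucolipin 2 sits largely on recycling endosomes and is known in mouse macrophages as a gene switched on by bacterial products, mucolipin 3 sits on early endosomes and lysosomes, and the two-pore channels pass sodium and calcium in response to PI(3,5)P2 and the messenger NAADP.

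The sequences shown are stretches before the RefSeq start of the 3 mucolipin genes, because TFEB is known to bind the E-box letters CACGTG, which are in capitals. They were cut from RefSeq's promoter windows (build GRCm38.p6), which matched 4 of the 5 genes. Tpcn1 had no entry.
Mcoln1, chr8:3500372-3500486, + strand: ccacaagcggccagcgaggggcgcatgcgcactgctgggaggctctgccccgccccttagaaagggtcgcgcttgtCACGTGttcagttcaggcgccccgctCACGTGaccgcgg
Mcoln2, chr3:146150059-146150173, + strand: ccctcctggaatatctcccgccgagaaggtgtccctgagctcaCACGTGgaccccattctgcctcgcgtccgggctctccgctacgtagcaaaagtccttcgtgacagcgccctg
Mcoln3, chr3:146121587-146121701, + strand: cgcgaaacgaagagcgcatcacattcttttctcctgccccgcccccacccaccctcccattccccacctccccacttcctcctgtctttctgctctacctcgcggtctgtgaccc
The Mcoln1 stretch runs from 147 to 33 bases before the start and holds the letters at 71 to 66 and at 45 to 40 bases before it. The Mcoln2 stretch, 115 to 1 bases before the start, holds them once, at 72 to 67 bases. The Mcoln3 stretch, 204 to 90 bases before the start, holds none, and none was in the whole 250 bases searched before the starts of Mcoln3 and Tpcn2. Of 32851 promoter windows of the same 250 bases, 6.02% held CACGTG, which reads the same on both strands. The longer TCACGTG, searched on both strands and overlapping the shorter motif, was in 3.13% of windows, among them that of Mcoln1. The palindrome TCACGTGA was in 0.785%, again with Mcoln1 among them, at its copy nearer to the start. A match of letters is a description and no test of binding.

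Mcoln2 and Mcoln3 are neighbours. In the GENCODE vM21 annotation (GRCm38) Mcoln3 (ENSMUSG00000036853) spans chr3:146117450-146141806 and Mcoln2 (ENSMUSG00000011008) spans chr3:146149833-146195513, both on the + strand, 8026 bp apart with 0 protein-coding genes between. Mcoln1 (ENSMUSG00000004567) lies at chr8:3500457-3515232 on the + strand, Tpcn1 (ENSMUSG00000032741) at chr5:120534153-120588673 and Tpcn2 (ENSMUSG00000048677) at chr7:145186524-145284011, both on the - strand. The stretches of Mcoln2 and Mcoln3 shown above lie inside these spans, and the bases before the spans were not searched for CACGTG. The Mcoln1 stretch crosses the start of its span, with 30 of its bases in an annotated exon. So the presence or absence of the letters describes the RefSeq start used and not every annotated start of a gene. No exon of the 5 genes overlapped an exon of another gene, so the unstranded reads do not mix them with a neighbour.

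Libraries held 13797484 to 32645783 counted reads, with 12359 to 12780 of the 12795 genes detected. Tfeb averaged 158 ± 111 CPM (counts scaled to library size) in CCR2pos mac-TFEB, 6.54 ± 2.94 in CCR2pos CX3CR1-Cre, 188 ± 127 in CCR2neg mac-TFEB and 7.91 ± 0.920 in CCR2neg CX3CR1-Cre libraries (SD, n = 4 and 5). In Cre-neg cells it averaged 38.8 ± 15.2 CPM in CCR2pos TFEB-TG, 6.06 ± 0.770 in CCR2pos TFEB-wt, 21.1 ± 10.6 in CCR2neg TFEB-TG and 6.65 ± 2.48 in CCR2neg TFEB-wt libraries, and the counts do not separate cassette from endogenous Tfeb. The 8 macrophage markers summed to 20306 to 35016 CPM per library. The TFEB-TG Cre-neg library 1 of the CCR2neg fraction stood apart with 520 CPM of 7 cardiomyocyte markers, against 16.4 CPM in the library with the least. The tested differences of Mcoln2 and Mcoln3 that rest on it are also given without it, from fits that do not pair libraries. Fits that pair libraries by their number in the labels were not made without it. In bulk samples fewer cells of a type and less RNA per cell cannot be told apart.

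On a scale per length (CPM per kb of exon), which allows genes to be compared, Mcoln2 and Tpcn2 had the highest means in every group. Group means of the level per kb ran from 8.86 to 19.6 for Mcoln2 and from 8.96 to 10.7 for Tpcn2, against 1.43 to 1.80 for Mcoln1 and 1.99 to 2.56 for Tpcn1. Mcoln3 ran from 1.78 to 9.88. It was near Tpcn2 in CCR2neg mac-TFEB cells (9.88 ± 4.50 against 10.7 ± 1.01, SD). The same held in CCR2neg TFEB-TG Cre-neg cells (8.66 ± 0.633 for Mcoln3 against 9.56 ± 1.10 for Tpcn2). Mcoln2, the mucolipin of recycling endosomes, was thus higher than Mcoln1, the broadly expressed mucolipin of lysosomes, in all 8 groups, by a ratio of 4.93 in CCR2neg CX3CR1-Cre cells and 13.7 in CCR2neg mac-TFEB cells at the ends of the range. The late endosomal and lysosomal Tpcn2 exceeded Tpcn1, found on a wider range of endosomes, by a ratio of 3.87 to 5.33. Exon length was the union over annotated transcripts, 7555 bp for Mcoln1 and 8462 bp for Tpcn1 against 3288, 3467 and 5256 bp for Mcoln2, Mcoln3 and Tpcn2, so a level per kb of the longer ones may be understated where cells use short transcripts.

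**Figure D1:**
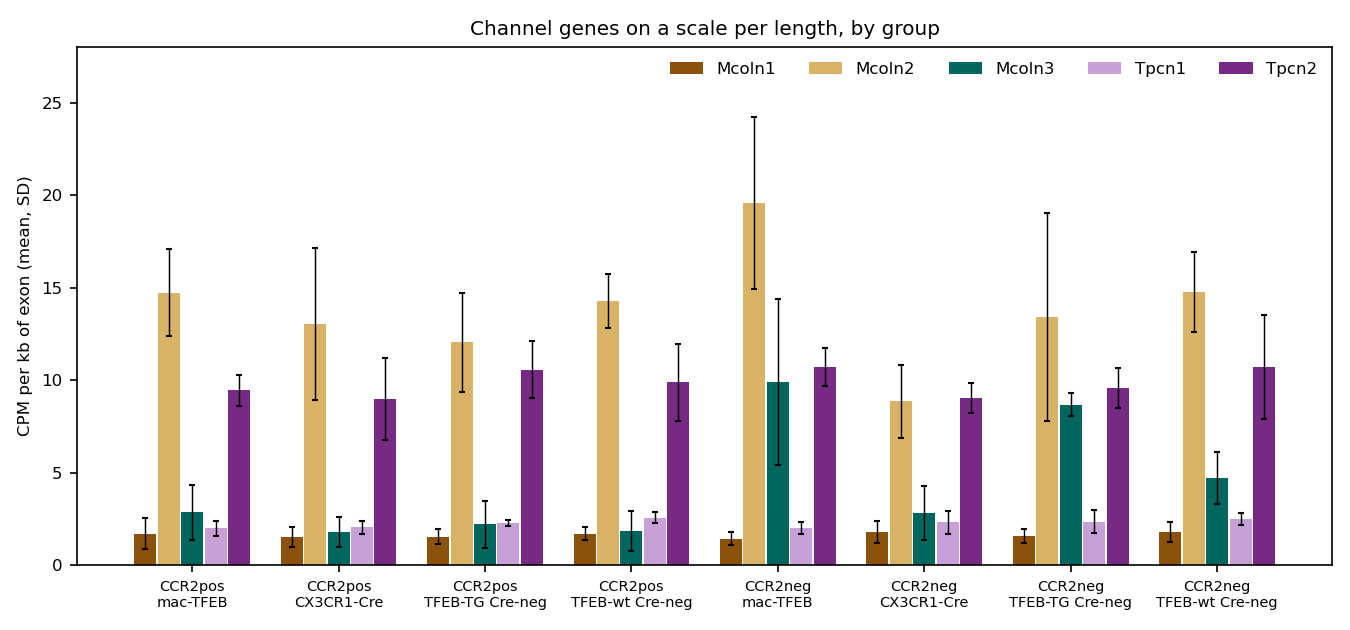
Level per length of the 5 channel genes in the 8 groups. Bars are means in CPM per kb of exon and whiskers are SDs (n = 4 for mac-TFEB and TFEB-TG Cre-neg, 5 for the others). Mcoln2 and Tpcn2 have the highest means in every group. Mcoln3 is highest in CCR2neg mac-TFEB cells (9.88), followed by CCR2neg TFEB-TG Cre-neg cells (8.66), and is near Tpcn2 in both.

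TFEB overexpression, the contrast of mac-TFEB with CX3CR1-Cre cells, went with higher Mcoln2 and Mcoln3 in the CCR2neg fraction. Mcoln2 was 2.21 times and Mcoln3 3.54 times as high in mac-TFEB cells, while Mcoln1, Tpcn1 and Tpcn2 did not pass the test. So 2 of the 5 genes passed, both upward, where 1.38% of all 12795 genes passed (176 genes) and 0.922% passed upward (118 genes). A gene passed at an adjusted p under 0.05 in edgeR's quasi-likelihood test, adjusted over all genes. The 5 channel genes were read with this background known, and no test of the 5 as a set was made.

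Mcoln2 had 42.2, 66.4, 71.9 and 76.6 CPM in the CCR2neg mac-TFEB libraries 1 to 4, against 31.0, 38.7, 29.8, 24.1 and 22.2 CPM in the CCR2neg CX3CR1-Cre libraries 1 to 5. All 4 mac-TFEB libraries lay above all 5 CX3CR1-Cre libraries. The means were 64.3 ± 15.3 and 29.1 ± 6.50 CPM (SD, n = 4 and 5), with a log2 fold change of 1.14 ± 0.23 (SE) and an adjusted p of 0.00633. The call held when any 1 library of the comparison was left out, with log2 fold changes between 1.05 and 1.30. Library 1 of mac-TFEB, the lowest for Mcoln2, had the most Tfeb, 335 CPM, and library 4, the highest for Mcoln2, had the least, 67.4 CPM. Tfeb was 250 CPM in library 2 and 98.1 CPM in library 3. The transcript Xist reached 10 CPM in mac-TFEB libraries 3 and 4 but not in 1 and 2. Of the CX3CR1-Cre libraries only library 1 lay below that limit, so Xist was not balanced. With a term for Xist the log2 fold change of Mcoln2 was 1.18 ± 0.23 (SE) with an adjusted p of 0.00225 (edgeR). The part of Xist in the order of Mcoln2 and Tfeb was not tested.

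Mcoln3 had 15.8, 31.9, 53.8 and 35.5 CPM in the CCR2neg mac-TFEB libraries, against 8.10, 16.6, 4.24, 13.2 and 6.50 CPM in the CCR2neg CX3CR1-Cre libraries. The groups overlapped, since mac-TFEB library 1 lay under CX3CR1-Cre library 2, while the other 3 mac-TFEB libraries lay above all controls. The means were 34.2 ± 15.6 and 9.73 ± 5.07 CPM (SD, n = 4 and 5), with a log2 fold change of 1.82 ± 0.47 (SE) and an adjusted p of 0.0387. This call was less stable than that of Mcoln2. Without mac-TFEB library 3, which held the highest value, the log2 fold change was 1.52 with an adjusted p of 0.241, and the call was kept in 2 of 9 fits that left out 1 library. It was lost without mac-TFEB library 2, 3 or 4 and without CX3CR1-Cre library 1, 3, 4 or 5, and fitting the 9 libraries of the comparison alone gave an adjusted p of 0.0783.

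Mcoln1, the channel whose promoter stretch held the E-box letters at a pair of places, averaged 10.8 ± 2.62 CPM in CCR2neg mac-TFEB cells and 13.6 ± 4.51 CPM in CCR2neg CX3CR1-Cre cells (SD, n = 4 and 5). Its log2 fold change was -0.34 ± 0.28 (SE), with an approximate 95% interval of -0.89 to 0.22 and an adjusted p of 0.637. In single libraries it ranged from 8.60 to 14.6 CPM in mac-TFEB and from 10.2 to 21.2 CPM in CX3CR1-Cre cells, with overlap. The interval holds an increase of at most 0.22 on the log2 scale, below the lower interval ends of Mcoln2 (0.68) and Mcoln3 (0.91).

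Neither two-pore channel passed in the same contrast. Tpcn1 averaged 17.0 ± 2.73 CPM in mac-TFEB and 19.6 ± 5.22 CPM in CX3CR1-Cre cells of the CCR2neg fraction, with an interval of -0.55 to 0.13 for the log2 fold change and an adjusted p of 0.634. Tpcn2 averaged 56.2 ± 5.33 CPM in mac-TFEB and 47.5 ± 4.37 CPM in CX3CR1-Cre cells, with an interval of -0.08 to 0.57 and an adjusted p of 0.533. For Tpcn2, 3 of the 4 mac-TFEB libraries lay above all 5 CX3CR1-Cre libraries.

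**Figure D2:**
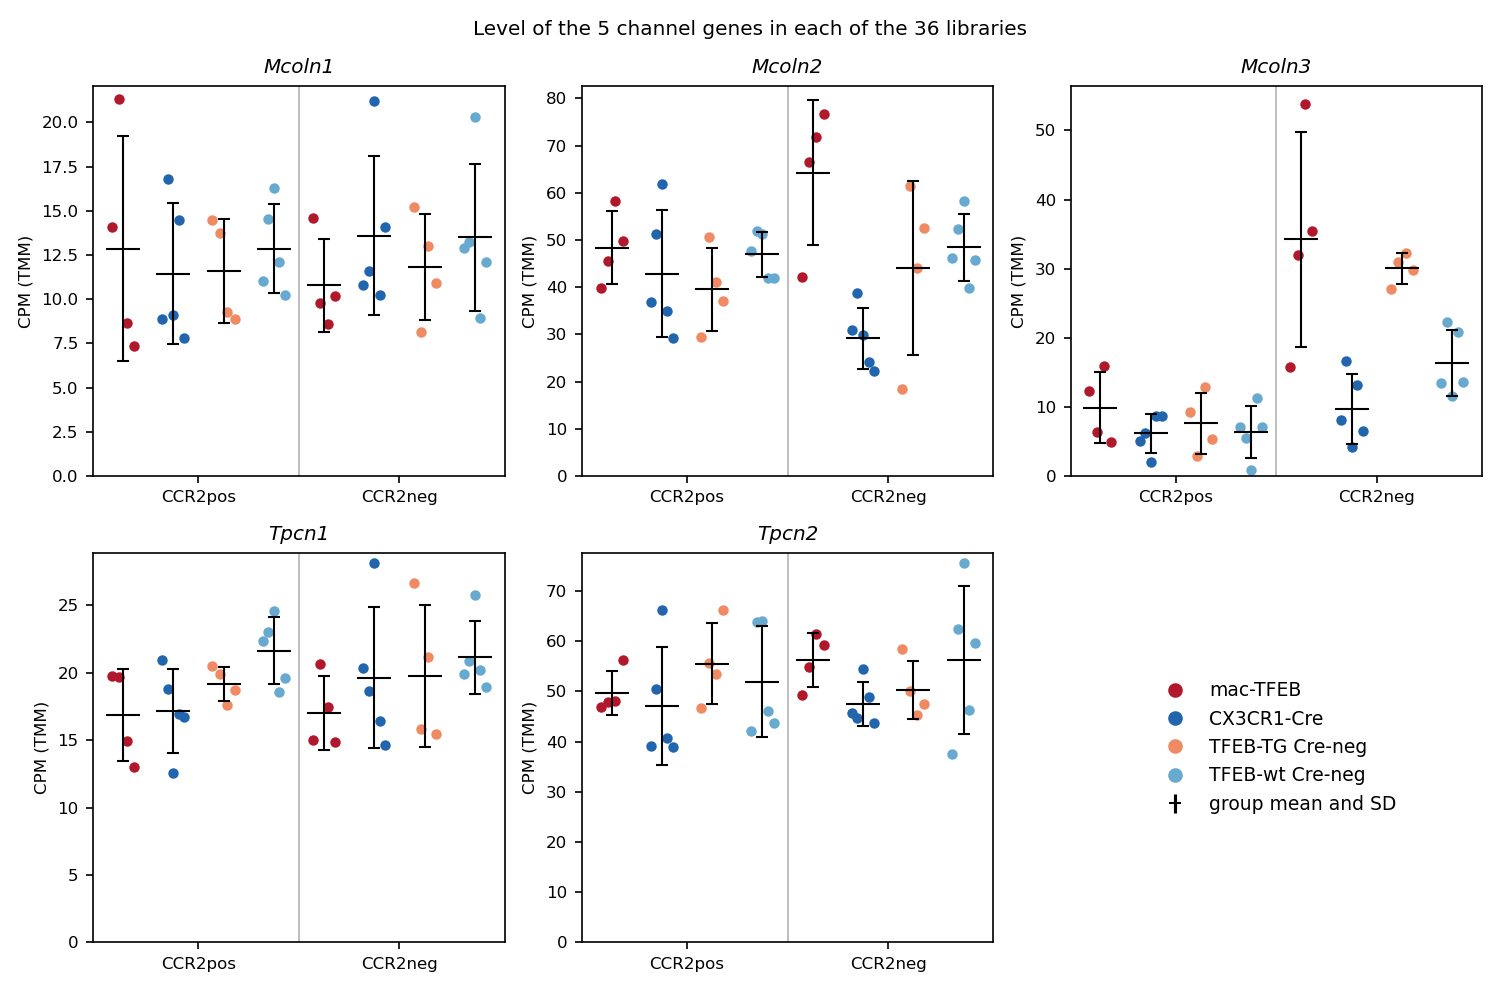
Level of each channel gene in every library (CPM after TMM scaling, linear axes from 0). Points are libraries, coloured by group, and bars are the group mean and SD (n = 4 or 5). Mcoln2 separates mac-TFEB from CX3CR1-Cre libraries in the CCR2neg fraction, where CX3CR1-Cre has the lowest mean of all groups (29.1 CPM), and Mcoln3 is low in all CCR2pos groups (means of 6.16 to 9.88 CPM).

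In the CCR2pos fraction none of the 5 genes passed in the same contrast, where 0.0391% of all genes did (5 genes). Mcoln2 had 39.8, 45.5, 58.2 and 49.9 CPM in CCR2pos mac-TFEB libraries, against 36.8, 51.3, 62.0, 34.9 and 29.2 CPM in CCR2pos CX3CR1-Cre libraries, with overlapping ranges. Its log2 fold change was 0.18 ± 0.23 (SE), with an interval of -0.29 to 0.64. Mcoln3 had 12.4, 6.29, 15.9 and 4.97 CPM in CCR2pos mac-TFEB libraries, against 5.12, 6.21, 2.07, 8.72 and 8.66 CPM in CCR2pos CX3CR1-Cre libraries, and its log2 fold change of 0.68 ± 0.48 (SE) had an interval of -0.26 to 1.61. The log2 fold changes of Mcoln1, Tpcn1 and Tpcn2 were 0.17, -0.03 and 0.08.

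Whether the TFEB contrast differed between fractions was tested as the difference of both effects, CCR2pos minus CCR2neg. It was -0.97 ± 0.33 (log2, SE) for Mcoln2, with an unadjusted p of 0.00657 and an adjusted p of 1.0, and -1.15 ± 0.67 for Mcoln3, with an unadjusted p of 0.0953. None of the 5 passed. Over all genes 0% passed (0 genes), edgeR gave 505 genes at an unadjusted p under 0.05, and DESeq2 and limma-voom called 0 genes as well. So the call of Mcoln2 and Mcoln3 in one fraction and not in the other is not a shown difference between the fractions.

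As a control comparison for the cassette, the study set TFEB-TG against TFEB-wt cells among Cre-neg libraries. Tfeb was not equal in it, with means of 21.1 CPM in TFEB-TG and 6.65 CPM in TFEB-wt cells of the CCR2neg fraction. In the CCR2pos fraction these means were 38.8 and 6.06 CPM. In CCR2neg cells 0.406% of all genes passed (52 genes) and none of the 5 channel genes did. Mcoln3 had 27.1, 30.9, 32.3 and 29.9 CPM in CCR2neg TFEB-TG Cre-neg libraries, against 13.5, 22.3, 11.5, 20.8 and 13.6 CPM in CCR2neg TFEB-wt Cre-neg libraries. All 4 TFEB-TG libraries lay above all 5 TFEB-wt libraries, yet the log2 fold change of 0.88 ± 0.46 (SE) had an adjusted p of 0.424 and an unadjusted p of 0.0641. The level in TFEB-TG Cre-neg cells, 30.04 ± 2.20 CPM, was close to the 34.2 ± 15.6 CPM of mac-TFEB cells, and without library 1, the one with cardiomyocyte markers, the difference from TFEB-wt was 0.93.

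Mcoln2 showed no such pattern in CCR2neg Cre-neg cells. It had 18.4, 61.4, 44.0 and 52.5 CPM in TFEB-TG Cre-neg libraries, against 46.2, 52.4, 58.3, 39.7 and 45.8 CPM in TFEB-wt Cre-neg libraries. The low value of 18.4 CPM was that of library 1. Its log2 fold change was -0.14 ± 0.24 (SE) with all libraries and 0.13 ± 0.21 without library 1, and neither passed. Mcoln1, Tpcn1 and Tpcn2 differed by -0.20, -0.10 and -0.16 on the log2 scale, or by -0.33, -0.27 and -0.24 without library 1, and passed in neither case.

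In CCR2pos Cre-neg cells 0.0313% of all genes passed (4 genes), again with none of the 5. Mcoln2 averaged 39.6 ± 8.81 CPM in TFEB-TG and 46.9 ± 4.82 CPM in TFEB-wt cells, and Mcoln3 averaged 7.61 ± 4.38 CPM in TFEB-TG and 6.35 ± 3.76 CPM in TFEB-wt cells (SD, n = 4 and 5). The log2 fold changes of the 5 genes lay between -0.25 for Mcoln2 and 0.27 for Mcoln3.

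The TFEB contrast minus the cassette contrast was tested as well. In CCR2neg cells it was 1.28 ± 0.33 (log2, SE) for Mcoln2, with an unadjusted p of 5.4e-04, rank 10 of all genes, and an adjusted p of 0.653. Here 0% of all genes passed (0 genes), edgeR gave 496 genes at an unadjusted p under 0.05, DESeq2 called 2 genes and limma-voom 0. With the label number as a block the value was 1.34 ± 0.21 with an adjusted p of 0.00290, and 32 genes passed. Without the TFEB-TG Cre-neg library 1 and with no block it was 1.01 ± 0.29, with an adjusted p of 0.850 (edgeR). The fit with the block was not made without that library. For Mcoln3 the value was 0.94 ± 0.65, with an unadjusted p of 0.160, or 0.88 without library 1. In CCR2pos cells 0% of all genes passed (0 genes, 145 at an unadjusted p under 0.05, and 0 by DESeq2 and by limma-voom), and the 5 channel genes lay between -0.02 for Tpcn2 and 0.42 for Mcoln2.

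Mcoln2 was lower in CX3CR1-Cre than in Cre-neg cells of TFEB-wt mice, in the CCR2neg fraction. CX3CR1-Cre cells averaged 29.1 ± 6.50 CPM and TFEB-wt Cre-neg cells 48.5 ± 7.07 CPM (SD, n = 5 each). All 5 CX3CR1-Cre libraries lay under all 5 Cre-neg libraries, and in 5 of 5 label numbers the CX3CR1-Cre library was the lower one. The log2 fold change was -0.74 ± 0.22 (SE) with an adjusted p of 0.0755, over the threshold, and with the label number as a block -0.75 with an adjusted p of 7.1e-04, under it. It was under the threshold too with DESeq2 (adjusted p of 0.0272), limma-voom (0.0425) and the libraries of the comparison fitted alone (0.0285). It stayed over the threshold in edgeR with DESeq2 size factors, with a stricter filter and with a term for Xist. Of the fits that left out 1 library, only the one without CX3CR1-Cre library 2 passed (0.0457). In that comparison 2.6% of all genes passed without the block (333 genes) and 965 genes passed with it. These CX3CR1-Cre libraries are also the controls of the TFEB contrast, so both differences of Mcoln2 rest on the same 5 libraries.

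Mcoln3 was lower in the CX3CR1-Cre library in 5 of 5 label numbers too, with 9.73 ± 5.07 CPM in CX3CR1-Cre and 16.3 ± 4.82 CPM in Cre-neg cells, but its ranges overlapped and the log2 fold change of -0.75 ± 0.44 (SE) had an adjusted p of 0.500. Mcoln1, Tpcn1 and Tpcn2 differed by 0.01, -0.11 and -0.25. In CCR2pos cells 0.00782% of all genes passed the Cre contrast (1 gene, and 134 with the block) and none of the 5. Tpcn1 was lower there in the CX3CR1-Cre library in 5 of 5 label numbers, with means of 17.2 ± 3.10 CPM in CX3CR1-Cre and 21.6 ± 2.49 CPM in Cre-neg cells and a log2 fold change of -0.33 ± 0.16 (unadjusted p of 0.0522, adjusted p of 0.880). The difference of the Cre contrast between fractions passed in 0% of genes (0 genes, 524 at an unadjusted p under 0.05, and 0 by DESeq2 and by limma-voom), and for Mcoln2 it was 0.60 ± 0.31 with an adjusted p of 0.992.

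Among TFEB-TG mice the Cre contrast, mac-TFEB against TFEB-TG Cre-neg, went the other way for Mcoln2. CCR2neg mac-TFEB cells averaged 64.3 ± 15.3 CPM and TFEB-TG Cre-neg cells 44.1 ± 18.5 CPM (SD, n = 4 each), and the mac-TFEB library was the higher one in 4 of 4 label numbers. The log2 fold change was 0.54 ± 0.25 (SE) with an adjusted p of 0.605, and with the label number as a block 0.60 with an adjusted p of 0.0372. Without the TFEB-TG Cre-neg library 1 and with no block it was 0.28, with an adjusted p of 0.748. Of all genes 0.156% passed (20 genes), and 301 genes passed with the block. Mcoln3 differed by 0.19 ± 0.48 in this contrast, or by 0.14 without library 1. In CCR2pos cells 0.0156% of all genes passed (2 genes, and 26 with the block), and the 5 channel genes lay between -0.18 for Tpcn1 and 0.37 for Mcoln3, with none passing.

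**Figure D3:**
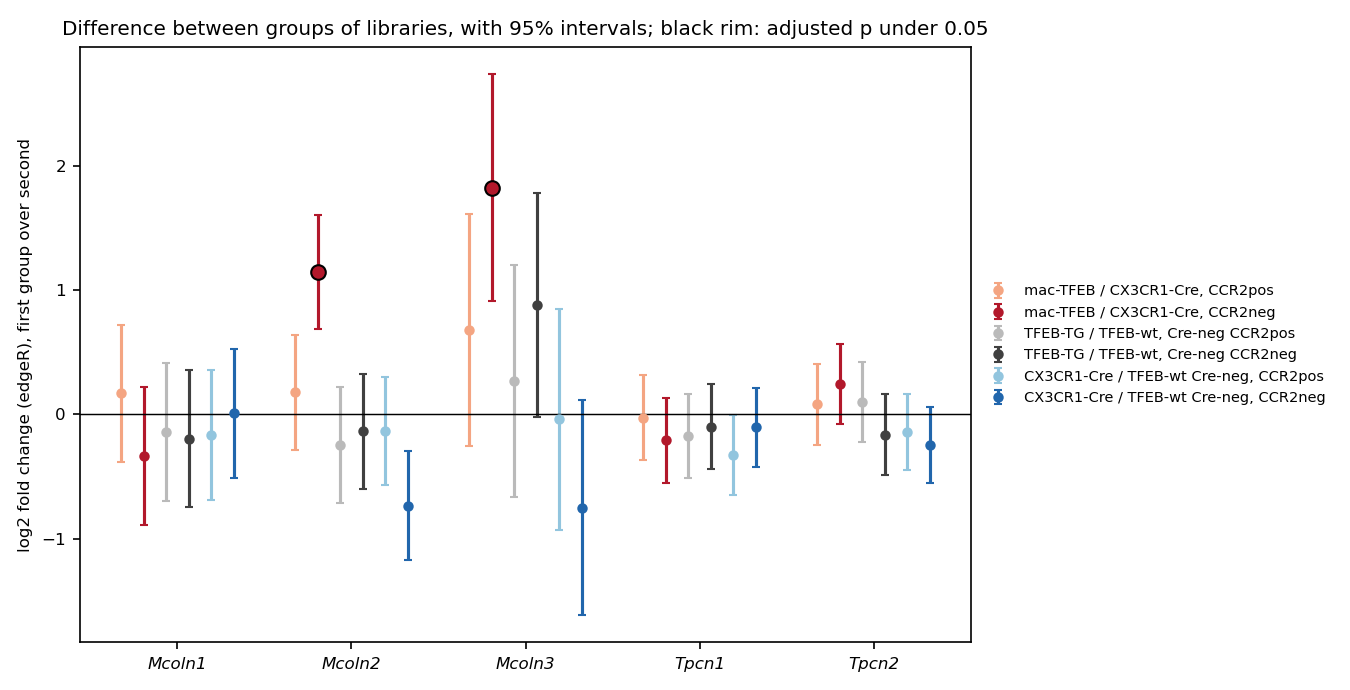
Log2 fold change of each channel gene in 6 contrasts, with approximate 95% intervals (1.96 SE). Points with a black rim passed at an adjusted p under 0.05, which were Mcoln2 (1.14) and Mcoln3 (1.82) in the contrast of mac-TFEB with CX3CR1-Cre cells of the CCR2neg fraction.

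Mcoln3 was the member that followed the CCR2 sort. In TFEB-TG Cre-neg cells it had 9.24, 2.91, 12.9 and 5.41 CPM in CCR2pos libraries 1 to 4, against 27.1, 30.9, 32.3 and 29.9 CPM in CCR2neg libraries 1 to 4. The fractions did not overlap. The log2 fold change was -1.97 ± 0.51 (SE) with an adjusted p of 0.0229, so 1 of the 5 genes passed, downward, where 3.26% of all genes passed (417 genes) and 0.789% passed downward (101 genes). The call was lost without the CCR2pos library 2, the lowest of all (adjusted p of 0.0960), without the CCR2pos library 4 (0.0843) and without the CCR2neg library 3 (0.0513), and also when the 8 libraries of the comparison were fitted alone (0.0527). Without the CCR2neg library 1, the one with cardiomyocyte markers, the log2 fold change was -2.02 with an adjusted p of 0.0247.

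The other 3 groups gave the same direction of Mcoln3 without passing. In mac-TFEB cells the CCR2pos libraries had a mean of 9.88 ± 5.14 CPM and the CCR2neg libraries one of 34.2 ± 15.6 CPM (SD, n = 4 each), with a log2 fold change of -1.80 ± 0.50 and an adjusted p of 0.107, where 0.539% of all genes passed (69 genes). With the label number as a block it was -1.85 with an adjusted p of 0.00190, and 481 genes passed. It also passed with DESeq2 (adjusted p of 0.0438) and limma-voom (0.00271). In edgeR it did not pass with the libraries of the comparison alone (0.148), DESeq2 size factors (0.110), a stricter filter (0.105) or a term for Xist (0.0875). In TFEB-wt Cre-neg cells Mcoln3 had 7.02, 5.52, 0.815, 11.3 and 7.11 CPM in CCR2pos libraries, against 13.5, 22.3, 11.5, 20.8 and 13.6 CPM in CCR2neg libraries. Those ranges did not overlap, and the log2 fold change was -1.36 ± 0.45 with an adjusted p of 0.127, or -1.54 with an adjusted p of 0.00255 with the block. Here 2.35% of all genes passed without the block (301 genes) and 808 genes with it. The value of 0.815 CPM rested on 16 reads, for which counting error alone is 25%.

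In CX3CR1-Cre cells the sort contrast of Mcoln3 was nearest to 0, at -0.65 ± 0.45 (log2, SE), with an adjusted p of 0.624, or 0.298 with the block. The CCR2pos mean was 6.16 ± 2.77 CPM and the CCR2neg mean 9.73 ± 5.07 CPM (SD, n = 5 each). Of all genes 0.797% passed there (102 genes, and 552 with the block). Over the 4 groups the CCR2pos library was the lower one in 17 of 18 label numbers for Mcoln3. The same count was 11 of 18 for Mcoln1, 10 for Mcoln2, 8 for Tpcn1 and 11 for Tpcn2. The 7 dendritic cell markers summed to 110 to 199 CPM in CCR2pos mac-TFEB libraries, against 52.9 to 74.8 CPM in CCR2neg mac-TFEB libraries, and to 117 to 190 CPM in CCR2pos CX3CR1-Cre, against 34.1 to 69.0 CPM in CCR2neg CX3CR1-Cre libraries. In Cre-neg cells the fractions overlapped, with 47.6 to 142 CPM in CCR2pos and 41.1 to 106 CPM in CCR2neg TFEB-TG libraries, and 109 to 174 CPM in CCR2pos and 56.7 to 119 CPM in CCR2neg TFEB-wt libraries. The 4 of 6 listed neutrophil markers summed to 103 to 118 CPM in CCR2pos and 66.3 to 92.6 CPM in CCR2neg CX3CR1-Cre libraries, without overlap. In the other groups their fractions overlapped. The part of these markers in the sort contrasts was not tested.

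Mcoln2 passed in none of the 4 sort contrasts without the block, and its values differed in sign. The CCR2pos library was lower in 4 of 4 label numbers of mac-TFEB cells (log2 fold change -0.41 ± 0.25, SE, adjusted p of 0.721) and higher in 5 of 5 label numbers of CX3CR1-Cre cells (0.56 ± 0.22, adjusted p of 0.311, or 0.54 with an adjusted p of 0.0242 with the block). In TFEB-TG Cre-neg cells it differed by -0.16 ± 0.25, with the CCR2pos library lower in 3 of 4 label numbers, and by -0.42 without the CCR2neg library 1 (unadjusted p of 0.0656). In TFEB-wt Cre-neg cells it differed by -0.05 ± 0.22, with 46.9 ± 4.82 CPM in CCR2pos and 48.5 ± 7.07 CPM in CCR2neg libraries. Mcoln1, Tpcn1 and Tpcn2 lay between -0.25 and 0.26 in all 4 sort contrasts and passed in none.

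**Figure D4:**
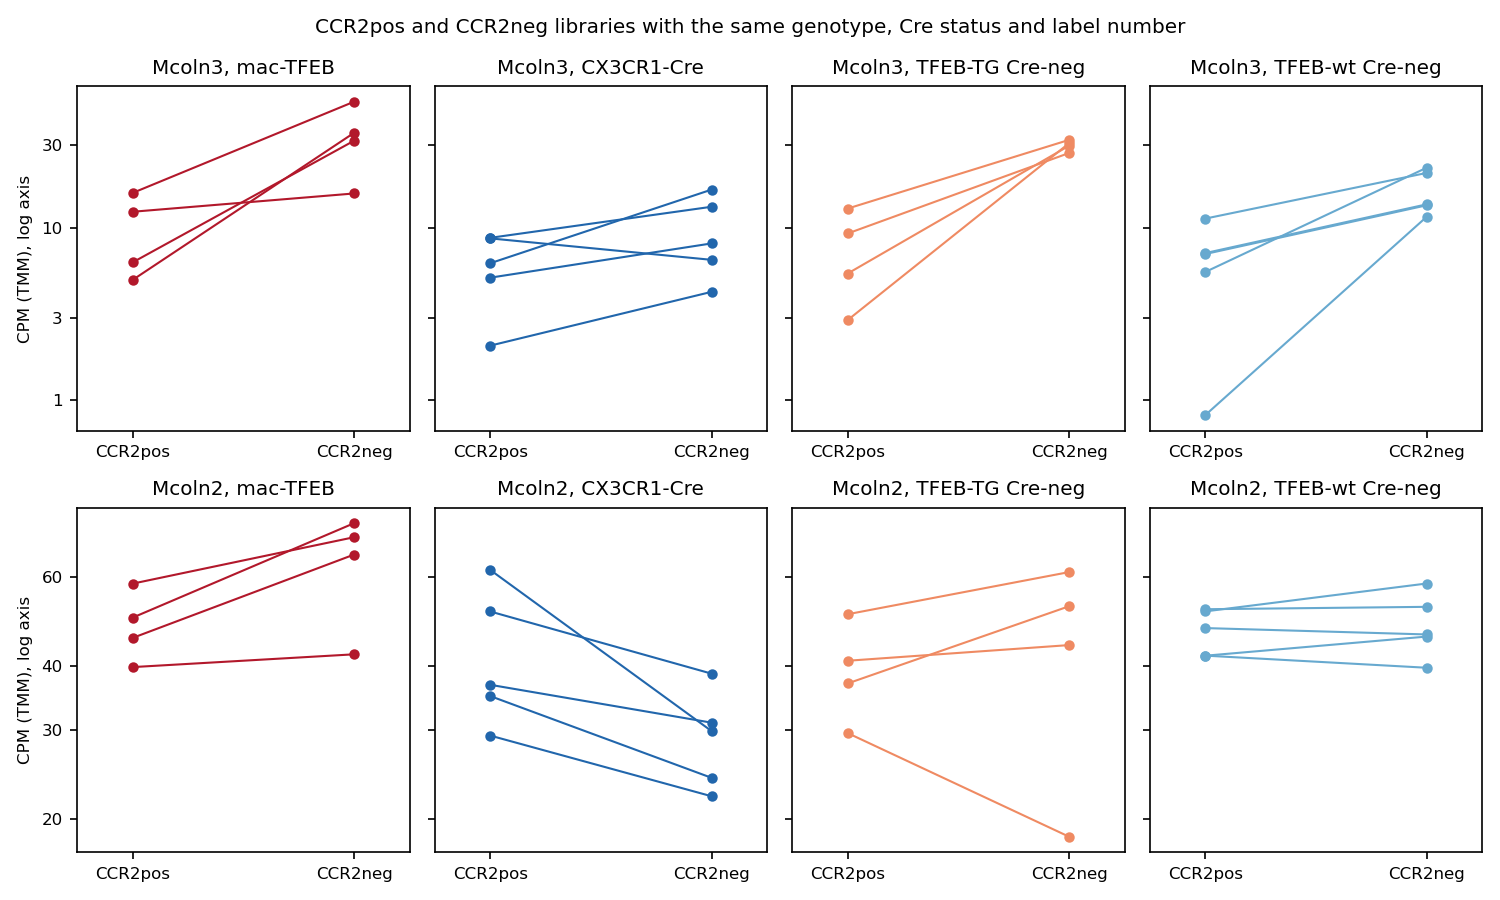
CCR2pos and CCR2neg libraries of the same genotype, Cre status and label number, joined by lines (CPM after TMM scaling, log axes). Mcoln3 is lower in the CCR2pos library in 17 of 18 lines, and Mcoln2 is lower in 4 of 4 mac-TFEB lines and higher in 5 of 5 CX3CR1-Cre lines.

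In the order of the 8 group means, Mcoln3 was highest in CCR2neg mac-TFEB (34.2 CPM) and CCR2neg TFEB-TG Cre-neg cells (30.04 CPM), which did not differ beyond their spread. CCR2neg TFEB-wt Cre-neg cells came next (16.3 CPM), a step larger than the pooled SD and with no overlap with TFEB-TG Cre-neg, and then the 4 CCR2pos groups and CCR2neg CX3CR1-Cre between 6.16 and 9.88 CPM, which did not differ from each other beyond their spread. Mcoln2 was highest in CCR2neg mac-TFEB and lowest in CCR2neg CX3CR1-Cre cells. Each stood from its neighbour by more than the pooled SD, though with overlapping ranges. Among the 6 groups between, from 39.6 to 48.5 CPM, no neighbours in the order did, and groups further apart were not compared. For Mcoln1 (10.8 to 13.6 CPM), Tpcn1 (16.9 to 21.6 CPM) and Tpcn2 (47.1 to 56.3 CPM) no pair of neighbours in the order differed beyond its spread.

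Markers of other cells were compared beside the TFEB contrast in CCR2neg cells. The 7 dendritic cell markers, all listed, summed to 52.9 to 74.8 CPM in mac-TFEB and 34.1 to 69.0 CPM in CX3CR1-Cre libraries, and the 6 of 7 listed B cell markers to 117 to 167 CPM in mac-TFEB and 117 to 220 CPM in CX3CR1-Cre libraries. The 4 of 6 listed neutrophil markers (without Ly6g and Retnlg) summed to 76.1 to 113 CPM in mac-TFEB and 66.3 to 92.6 CPM in CX3CR1-Cre libraries. The dendritic and neutrophil sums were thus somewhat higher in mac-TFEB cells, with overlap. The 7 fibroblast markers, all listed, ran lower in mac-TFEB cells, at 48.2 to 300.1 CPM with a median of 64.0, against 56.2 to 377 CPM with a median of 172 in CX3CR1-Cre cells. The 7 cardiomyocyte markers summed to 25.5 to 47.9 CPM in mac-TFEB and 35.6 to 74.0 CPM in CX3CR1-Cre libraries. The 7 of 8 listed T and NK cell markers (3.75 to 68.0 CPM in mac-TFEB, 2.02 to 31.1 in CX3CR1-Cre), the 6 endothelial markers (21.2 to 159 and 17.4 to 102), the 5 mural markers (5.96 to 137 and 10.9 to 46.7) and the 3 of 4 listed erythroid markers (4.63 to 8.23 and 0.954 to 9.09) overlapped as well. The part of these markers in the Mcoln2 and Mcoln3 differences was not tested.

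The other genes of the channels' pathways come from lists, and the genes named from a list are mostly those with its smallest p. In the TFEB contrast none of the listed genes but Tfeb passed, in either fraction. Among 6 of 6 measured genes of PI(3,5)P2 synthesis, the lipid that opens mucolipins, 0 passed in CCR2neg cells, with a median log2 fold change of 0.09, against 0.01 over all genes tested. The member with the smallest p in CCR2neg cells was Fig4, the phosphatase of the PIKfyve complex, at -0.21 ± 0.12, followed by Pik3r4, a regulatory subunit of the kinase VPS34, at 0.29 ± 0.17. Among 3 of 4 measured makers and binding proteins of NAADP 0 passed. Lsm12, an NAADP receptor that joins the two-pore channels, lay at -0.16 ± 0.10 in CCR2neg and at -0.34 ± 0.10 in CCR2pos cells (unadjusted p of 0.00219, adjusted p of 0.751), and Jpt2, the other such receptor, lay at 0.27 ± 0.15 in CCR2neg cells. With 3 measured genes the median of this list is the value of 1 gene. It was -0.16 in CCR2neg and -0.34 in CCR2pos cells, the values given for Lsm12, so it shows no shift of the list. In the cassette contrast of Cre-neg cells, where mean Tfeb was also higher in TFEB-TG cells, the median was -0.29 in CCR2neg and -0.32 in CCR2pos cells. For the TFEB contrast minus the cassette contrast the median was 0.13 in CCR2neg and -0.02 in CCR2pos cells.

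On the effector side, 0 of 9 measured calcineurin and lysosomal calcium genes passed in CCR2neg cells, with a median of 0.09. Ppp3ca, a catalytic subunit of calcineurin, averaged 169 ± 9.63 CPM in mac-TFEB and 158 ± 10.1 CPM in CX3CR1-Cre cells. Of 12 measured calcium genes of the endoplasmic reticulum and plasma membrane 0 passed, with Itpr2, an IP3 receptor, at 0.26 ± 0.11 and Orai3, a store-operated channel, at -0.33 ± 0.13. Of 20 measured other endolysosomal channels and exchangers 0 passed, with a median of 0.04. Clcn7, the lysosomal chloride and proton exchanger, averaged 130 ± 19.0 CPM in mac-TFEB and 101 ± 16.2 CPM in CX3CR1-Cre cells, at 0.36 ± 0.12 and an adjusted p of 0.158, and Tmem63b, a stretch-gated channel, lay at -0.54 ± 0.23.

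Of the 4 MiT/TFE factors, the family of TFEB, only Tfeb passed in CCR2neg cells, at 4.57 ± 0.46 (log2, SE) with an adjusted p of 1.1e-07, and in CCR2pos cells, at 4.58 ± 0.46. Tfe3, a close relative of TFEB, averaged 70.9 ± 4.22 CPM in CCR2neg mac-TFEB and 93.8 ± 16.5 CPM in CCR2neg CX3CR1-Cre cells, at -0.40 ± 0.12 and an adjusted p of 0.0922.

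**Figure D5:**
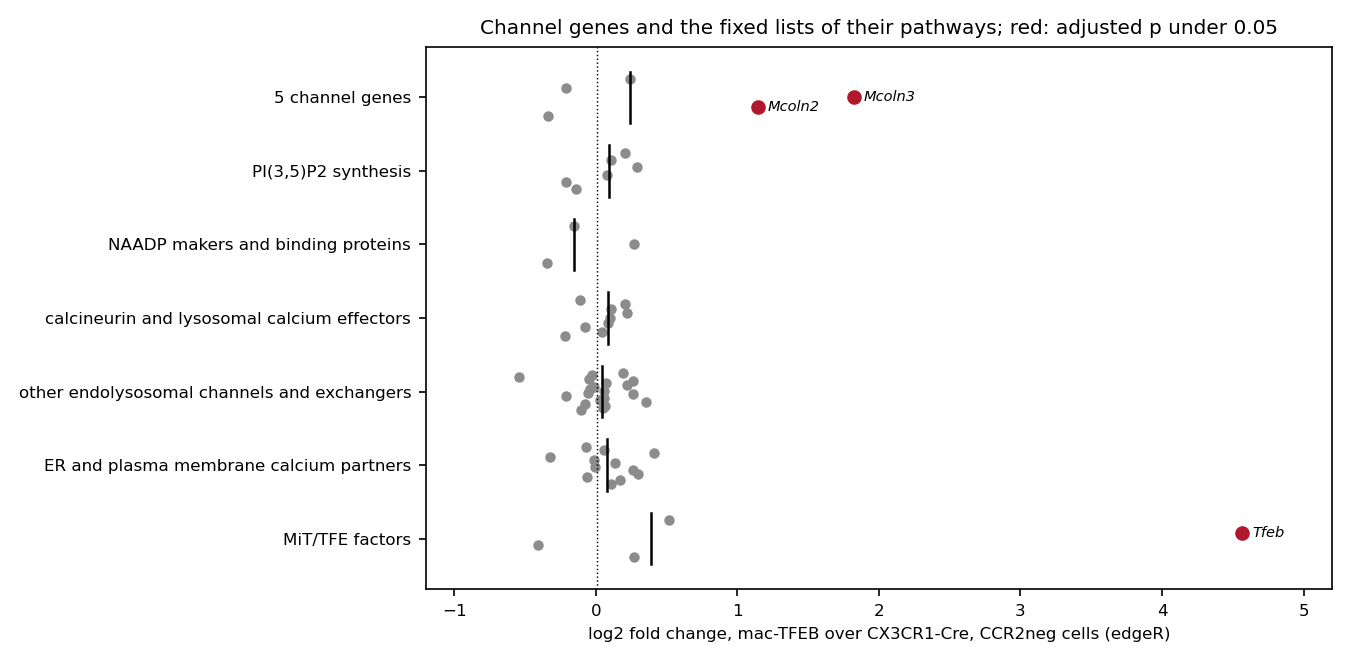
Log2 fold change of mac-TFEB over CX3CR1-Cre in CCR2neg cells for the 5 channel genes and the listed genes of their pathways. Points are genes, red ones passed at an adjusted p under 0.05, black bars are medians and the dotted line is the median of all genes tested (0.01). Mcoln2, Mcoln3 and Tfeb are the red points.

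The genes most like each channel gene over the 36 libraries were taken as the 3 with the highest Pearson r of log2 CPM. For Mcoln2 they were Soat1, an enzyme that esterifies cholesterol (r = 0.81), Ctsb, a lysosomal protease (r = 0.79), and Stxbp2, a protein of vesicle fusion (r = 0.77). For Mcoln3 they were Ifi27 (r = 0.87), the myelin protein gene Pmp22 (r = 0.87) and Gpnmb, a glycoprotein of lysosomes and of lipid-laden macrophages (r = 0.86). After centring on the group means the r of Gpnmb with Mcoln3 was 0.67 and that of Soat1 with Mcoln2 was 0.78. The same libraries, their depth and the group differences underlie each r, so these are descriptions.

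For Mcoln1 the nearest genes were Fnta, a subunit of farnesyltransferase (r = 0.84), Vamp2, a vesicle SNARE (r = 0.80), and Nagpa, the enzyme that uncovers the mannose 6-phosphate tag of lysosomal enzymes (r = 0.79). For Tpcn1 they were Smg6, Hdac5 and Poldip2 (r of 0.69, 0.65 and 0.62), and for Tpcn2 B4galnt1, Lpcat3 and Csf2rb2 (r of 0.69, 0.68 and 0.67). Within the 5 genes the neighbours Mcoln2 and Mcoln3 had an r of 0.15 over the 36 libraries, or -0.12 after centring on group means, while Mcoln1 and Tpcn1, on different chromosomes, had the highest r of the 10 pairs, 0.58.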

How the data were processed

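Flow-sorted macrophage RNA was sequenced as unstranded single-end reads from SMARTer cDNA, per the labels' protocols. Build GRCm38 and the tools TopHat and TopHat2 2.0.10, Bowtie2, HTSeq, edgeR and DESeq are listed, without roles, in the submitters' processing notes. The authors deposited whole-number read counts per gene for 12795 genes, all of which passed edgeR's expression filter (minimum count 10). CPM and log2 fold changes were computed here from the deposited counts with edgeR 4.0.16 (R 4.3.3), TMM scaling, 1 quasi-likelihood fit of 8 group means over 36 libraries (common dispersion 0.0943) and Benjamini-Hochberg adjustment. SE is the log2 fold change over the square root of F. Replicates of a group differed by more than sampling noise in all 64 pairs (chi-square per degree of freedom of at least 19.9).

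The study numbers libraries within a genotype. Same-numbered libraries deviated together, with mean correlations of 0.483 between fractions (at least 0.221) and 0.555 between Cre states (at least 0.341). For libraries of unlike number the means were -0.133 and -0.152, with single pairs up to 0.460 and 0.396. A fit with the number as a block was therefore made for comparisons within a genotype and for differences between such comparisons. Alternatives were DESeq2 1.42.0 (size factors, Wald test), limma-voom (limma 3.58.1), filters, fits of a comparison's libraries alone, a term for Xist and leaving out each library. Named genes are the 5 members, the called genes and the 2 of smallest p of each pathway list in either TFEB contrast, the 3 most alike genes per member with at least 10 CPM, and checks of genotype and sort. A result on 1 gene named by this rule is left out here. Members and lists were chosen with earlier results of these data known.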

Additional observations from a re-analysis of the deposited data

Results flagged for a closer look

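Mcoln2 moved with the CCR2 sort in opposite directions in every label number of 2 groups, lower in CCR2pos mac-TFEB cells (4 of 4) and higher in CCR2pos CX3CR1-Cre cells (5 of 5). The test of that difference, which is the difference of the TFEB contrast between fractions, gave -0.97 on the log2 scale with an unadjusted p of 0.00657 and an adjusted p of 1.0 (edgeR), or 0.147 with the label number as a block, so it did not pass.

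Mcoln2 also moved with Cre status in opposite directions in CCR2neg cells, higher in mac-TFEB than in TFEB-TG Cre-neg cells (4 of 4 label numbers) and lower in CX3CR1-Cre than in TFEB-wt Cre-neg cells (5 of 5). The difference of both was 1.28 on the log2 scale with an adjusted p of 0.653, or 1.34 with an adjusted p of 0.00290 with the label number as a block. Both fits hold the TFEB-TG Cre-neg library 1, which had cardiomyocyte markers and only 18.4 CPM of Mcoln2. Without it and with no block the difference was 1.01 with an adjusted p of 0.850 (edgeR), and the blocked fit was not made without it.

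Of 40 sets of 1 member in 1 group, 2 held a library far from the others by Dixon's gap ratio at its 95% critical value, which chance passes in about 1 in 20 sets. Tpcn1 was at 25.8 CPM in the CCR2neg TFEB-wt Cre-neg library 3, and Tpcn2 was at 56.3 CPM in the CCR2pos mac-TFEB library 4.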

How the results depend on the processing

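Of 1530 values of the 5 genes under an alternative setting, 1506 kept their side of the threshold, 12 lost a call and 12 gained one. The fit with no filter is counted among them and among the 7 alternatives named below. It repeats the main fit because all genes passed the filter, so its values could not differ. The sign was that of the value with all libraries in 1465 of them and the other in 65, none of which belonged to the 3 calls. The 65 arose from log2 fold changes of at most 0.31 in size, such as Mcoln2 in the cassette contrast of CCR2neg cells, at -0.14 with all libraries and 0.13 without the TFEB-TG Cre-neg library 1. Mcoln2 kept its call in the TFEB contrast of CCR2neg cells in all 7 alternatives (adjusted p of 3.3e-05 to 0.0260) and in all 9 leave-outs (1.05 to 1.30). Mcoln3 kept its call in 6 of 7, lost it with the libraries of the comparison alone (log2 fold change 1.82), and ranged from 1.52 to 2.09 over the leave-outs. The cause was not tested. Depth limits mainly Mcoln3 in CCR2pos cells, where libraries held as few as 16 reads.

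With the label number as a block, Mcoln2 gained a call in 4 comparisons and Mcoln3 in 2, as given above (for example -0.75 for Mcoln2 with Cre status), and no call of the 5 genes was lost. Libraries of different genotypes could not be paired, because the numbers are given within a genotype. The blocked differences that span genotypes, such as the 1.34 of Mcoln2, are differences of comparisons made within each genotype.

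Counts of calls over all genes moved more than the members. The 176 genes of the TFEB contrast in CCR2neg cells were 318 with DESeq2, 1351 with limma-voom, 67 with its libraries alone, 428 with an Xist term and 59 to 260 over leave-outs. The 5 genes in CCR2pos cells were 14 with DESeq2 and 9 with limma-voom or an Xist term. The 52 genes of the cassette contrast in CCR2neg cells were 288 with DESeq2, 102 with limma-voom, 285 with an Xist term, 1 with its libraries alone and 6 to 440 over leave-outs. The sort contrasts passed 69, 102, 417 and 301 genes in mac-TFEB, CX3CR1-Cre, TFEB-TG Cre-neg and TFEB-wt Cre-neg cells, against 181, 210, 635 and 428 with DESeq2, 287, 197, 480 and 391 with limma-voom, 104, 153, 523 and 375 with an Xist term, and 32, 166, 68 and 199 with the libraries of the comparison alone. Over leave-outs they ranged from 36 to 80, 46 to 106, 249 to 608 and 165 to 285. The Cre contrast of TFEB-wt CCR2neg cells (333 genes) ranged from 195 to 388 over leave-outs, and that of CCR2pos cells (1 gene) was 11 with DESeq2 and 13 with limma-voom. The 20 genes that passed in CCR2neg cells when mac-TFEB was set against TFEB-TG Cre-neg were 85 with DESeq2, 13 with limma-voom, 46 with an Xist term, 6 with the libraries alone and 7 to 32 over leave-outs, and the 2 genes in CCR2pos cells were 5 with DESeq2 and 1 with the libraries alone.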
